A study of Mus musculus with 6 samples.

Results

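The cell cycle genes described here are 48 listed genes of the division machinery, out of 21938 protein-coding genes on chromosomes 1 to 19, X and Y, and they were listed by name, with earlier results of these data known. They fall into 6 role groups: 8 G1 cyclins and kinases, 6 E2F and RB factors, 11 replication licensing genes, 6 genes of mitotic entry, 12 genes of the mitotic machinery and 5 CDK inhibitors. Accessible chromatin at them was measured by ATAC-seq, in which the transposase Tn5 cuts and tags open DNA, in crypts isolated from the mouse small intestine. There were 3 WT and 3 Arid3a cKO libraries, each with its own list of peaks. The cKO animals were VillinCre-ERT2+/-;Arid3a fl/fl, so that Arid3a, a transcription factor that binds A+T-rich DNA, is deleted in Villin-expressing epithelial cells when tamoxifen is given. WT animals were injected with tamoxifen too, on 3 consecutive days as in the cKO, and all animals were culled 1 month after the first injection. The WT genotype is not further described in the sources used here. The crypt cells were not sorted for ATAC-seq, so cells other than epithelium may have contributed, and the deletion spares any cell that does not express Villin.

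A cell commits to division when cyclin D with CDK4 or CDK6, and then cyclin E with CDK2, inactivate RB and release the E2F factors, which switch on genes of DNA replication. Genes of mitosis are switched on later. They are controlled mainly through CHR and CCAAT promoter elements, bound by the DREAM and MuvB complexes and by NF-Y. CDK inhibitors hold the cycle back. In the gut, division takes place in the crypt, above all in the transit-amplifying cells, and stops as cells move onto the villus.

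By replicate number, the WT lists held 40492, 50704 and 55091 peaks and the cKO lists held 58297, 46415 and 51464. Merged over the 6 lists they formed 71286 regions, and 32748 of these were called in every list. The commonest background value in each list, an estimate of the coverage of the library, was lowest for cKO 2 (1.75 fragments per base) and highest for cKO 1 (2.29). The rank correlation of fold enrichment over shared peaks was highest within genotype, between WT 2 and WT 3 (Spearman's rho 0.923) and between cKO 1 and cKO 3 (0.917), and lowest between WT 1 and cKO 1 (0.753). The lists did not sort cleanly by genotype. The cKO 2 list resembled the WT lists (0.883 to 0.910) more than cKO 1 (0.819) or cKO 3 (0.841). WT 1 was closest to cKO 2 (0.883), and WT 3 was closer to every cKO list (0.893 to 0.902) than to WT 1 (0.857). All 6 lists held a peak at the Arid3a promoter, so it did not check the labels. Of 12 epithelial marker genes, 6 had a promoter peak in every list, 5 in some and 1 in none. Of 12 markers of immune, endothelial, stromal and muscle cells, 2 (Col1a1 and Pdgfra) had one in every list, 2 (Kdr and Myh11) in some and 8 in none, among them the immune marker Ptprc and the endothelial marker Pecam1.

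Nearly all cell cycle promoters were open in crypts of both genotypes. A promoter peak, with its summit between 1000 bp upstream and 100 bp downstream of an annotated start site, was present in all 6 lists for 43 of 48 cell cycle genes, 89.6%, against 44.6% of protein-coding genes. It was present in every list for 11 of 11 licensing genes and 6 of 6 genes of mitotic entry, and for 7 of 8 G1 cyclins and kinases, 5 of 6 E2F and RB factors, 11 of 12 genes of the mitotic machinery and 3 of 5 CDK inhibitors. A wider list of 67 other cell cycle genes gave 54 in every list, 9 in some and 4 in none. No cell cycle gene had a promoter peak in every list of 1 genotype and in none of the other. Across protein-coding genes, 0.119% had one in the 3 cKO lists only and 0.146% in the 3 WT lists only.

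Of the 5 exceptions, 4 had an accessible site close to the start. At Ccnd1, which encodes cyclin D1, a region at chr7:144939308-144939902 was called in all 6 lists, but its summit lay inside the promoter window only in WT 1 and WT 2, at 99 and 98 bp downstream of the start. In the other lists the summit was 161 to 280 bp downstream. At Cdkn2b, which encodes the CDK4/6 inhibitor p15, the summits lay 160 to 237 bp downstream of the start in all 6 lists, within the UTR. That region, chr4:89310203-89311397, was among the strongest at any cell cycle gene, at percentiles of 97.3, 96.1 and 93.6 in WT and 98.3, 95.3 and 95.4 in cKO. At E2f2, an activating E2F, a region over an annotated UTR was called in all 6 lists with its strongest summit 317 bp downstream of a start. At Cdkn1a, which encodes the p53-responsive inhibitor p21, the promoter region was called in every list, but its summit lay 929 bp downstream of the nearest annotated start in cKO 1 and 1119 bp downstream in WT 1, against -25 to 81 bp in the other lists. WT 1 was counted as called through a separate, weaker peak at -667 bp from a start.

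Kif11, the kinesin that drives spindle poles apart, was the fifth exception. No peak was called within its gene body plus 10 kb in any list. The gene lies on chromosome 19 at positions 37376403 to 37421859 of GRCm38. It also has a copy on a fix patch, an extra sequence issued for the assembly, where a segment of 135726 bp that holds the gene matched the chromosome at 99.982% identity. The lists hold peaks on this patch, so it was part of the genome to which the reads were aligned. Across protein-coding genes, 267 of 286 with a copy on a patch (93.4%) had a promoter peak in no list, against 37.5% of the others. Both genes of the wider list with a patch copy, Skp2 and Nek2, also had no promoter peak. Whether reads with 2 equal placements account for the missing Kif11 peak was not tested.

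RefSeq promoter sequences (GRCm38.p6, 250 bp before to 50 bp after the start) were held for 38 of the 48 genes. They were searched on both strands for an E2F site, spelled as one of TTTGGCGC, TTTCGCGC, TTTGCCGC or TTTCCCGC. The CHR was searched as TTTGAA, with TTCGAA as its other spelling. The box bound by NF-Y was searched as CCAAT. An ARID3 site was searched as ATTAAA, with ATCAAA as its other spelling, and an AP-1 site as TGACTCA and its complement. No word of one motif lies within a word of another on either strand. The following 6 stretches of 120 bp belong to genes of mitotic entry (Cdk1, the mitotic kinase, and Ccnb2, cyclin B2), mitotic machinery (Mki67, the Ki-67 antigen, and Cenpf, a kinetochore protein) and replication (Mcm2, a helicase subunit, and Pcna, the sliding clamp). They were chosen because each holds an E2F, CHR or CCAAT match, and capitals mark the matches that lie whole within the stretch.
Cdk1: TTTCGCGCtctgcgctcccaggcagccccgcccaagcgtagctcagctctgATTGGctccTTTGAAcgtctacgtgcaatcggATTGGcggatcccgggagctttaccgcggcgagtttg
Ccnb2: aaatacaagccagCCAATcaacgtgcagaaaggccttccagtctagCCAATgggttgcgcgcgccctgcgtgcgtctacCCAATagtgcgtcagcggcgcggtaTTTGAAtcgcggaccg
Mki67: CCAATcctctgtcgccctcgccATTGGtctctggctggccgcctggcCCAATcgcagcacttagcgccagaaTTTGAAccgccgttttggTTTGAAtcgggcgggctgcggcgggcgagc
Cenpf: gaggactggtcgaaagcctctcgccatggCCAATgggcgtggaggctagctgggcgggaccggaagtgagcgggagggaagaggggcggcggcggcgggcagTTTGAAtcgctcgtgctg
Mcm2: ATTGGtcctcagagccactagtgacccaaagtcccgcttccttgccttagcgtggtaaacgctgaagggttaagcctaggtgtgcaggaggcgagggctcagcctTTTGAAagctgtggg
Pcna: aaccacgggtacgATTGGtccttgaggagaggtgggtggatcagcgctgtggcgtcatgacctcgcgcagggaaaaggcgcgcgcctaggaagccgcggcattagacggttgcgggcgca

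All 6 stretches lie on the minus strand of GRCm38.p6. They are at chr10:69352924-69353043 (Cdk1), chr9:70421535-70421654 (Ccnb2), chr7:135716448-135716567 (Mki67), chr1:189688067-189688186 (Cenpf), chr6:88898836-88898955 (Mcm2) and chr2:132253161-132253280 (Pcna). ATTGG is CCAAT read on the other strand. Ccnb2 carried 3 CCAAT words, at -87, -54 and -21 from the start, and a CHR word at 5. Mki67 carried 3 CCAAT words between -188 and -137 and a pair of CHR words at -116 and -98. Cdk1 carried an E2F word at -131 and a CHR word at -71 flanked by CCAAT words at -80 and -48. The searched windows held further words that do not lie whole within the stretches. For Cdk1 these were a CHR word from -15 to -10, cut by the end of the stretch and left unmarked, and a CCAAT word at -208. For Ccnb2 there was a further CHR word at -167, and for Cenpf a CCAAT word at -132.

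An E2F word was present in 13 of the 38 promoters (34.2%), against 3.32% of 16522 protein-coding genes and 4.78% of the 7821 with a promoter peak in every list. Of those 13, 7 were among the 9 licensing promoters searched (Mcm3, Mcm5, Mcm6, Mcm7, Cdc6, Cdt1 and Orc1), 3 were among the 5 E2F and RB promoters, and 0 of the 10 promoters of the mitotic machinery had one. A CHR word was present in 18 of 38 (47.4%), against 19.4% of all and 16.1% of those with a peak in every list. CHR and CCAAT words occurred together in 8 of 10 promoters of the mitotic machinery and 4 of 5 of mitotic entry, in 3 of 5 E2F and RB promoters and 2 of 9 licensing promoters, and in none of the 5 G1 and 4 CDK inhibitor promoters. The joint share over all protein-coding promoters was not computed, so these joint counts have no background beside them. CCAAT was present in 29 of 38 (76.3%), against 42.1% and 45%, among them 7 of 9 licensing and 9 of 10 mitotic machinery promoters. An ARID3 word was present in 6 of 38 (15.8%): Bub1b, Ccnb2, Cdk2, Cdk4, Cdkn1b and Plk1. Its background was 21.9% of all and 15.2% of those with a peak in every list. An AP-1 word was found in 0 of 38, against 5.40% and 4.46%. Median GC content of the 38 promoters was 60.2%, against 61.5% for promoters with a peak in every list. Their median CpG ratio, the CG pairs found over those awaited from the C and G content, was higher, at 0.909. It was 0.766 for promoters with a peak in every list and 0.584 for all. Every E2F word holds a CG, and the part of composition in the motif shares was not tested. A match is a run of letters and not a bound site, and the motif shares carry no test.

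**Figure D1:**
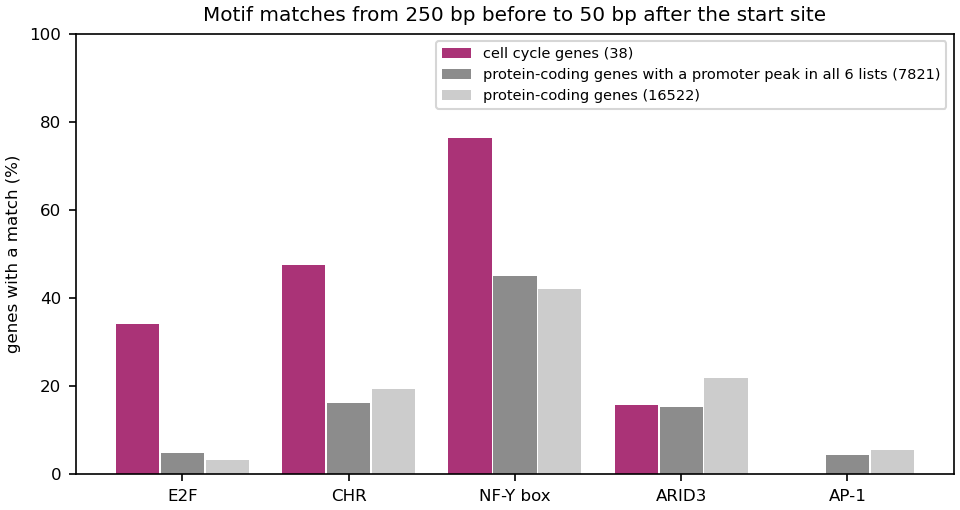
Share of genes (y axis, percent) with each motif (x axis; the NF-Y box is CCAAT) from 250 bp before to 50 bp after the start site, for 38 cell cycle genes, 7821 protein-coding genes with a promoter peak in all 6 lists and 16522 protein-coding genes. The cell cycle bars are highest for E2F, CHR and the NF-Y box, level with the genes with a peak for ARID3 and at 0 for AP-1.

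Peak strength was compared as a percentile: within each list, the 32748 shared peaks were ranked by fold enrichment, the pileup of fragments at the summit over the local background, from 0 (lowest) to 100 (highest). A shared region was available at 45 cell cycle promoters. Their median percentile was 82.0, against 75.1 over 11071 shared promoter regions of protein-coding genes and 38.4 over shared peaks outside promoters. Values above 50 were found at 38 of the 45 and above 90 at 14. By role the median was 91.2 for mitotic entry, 90.4 for licensing, 82.0 for the mitotic machinery, 74.9 for E2F and RB factors, 65.1 for G1 cyclins and kinases and 45 for CDK inhibitors. The 62 shared promoter regions of the wider cell cycle list had a median of 90.5.

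**Figure D2:**
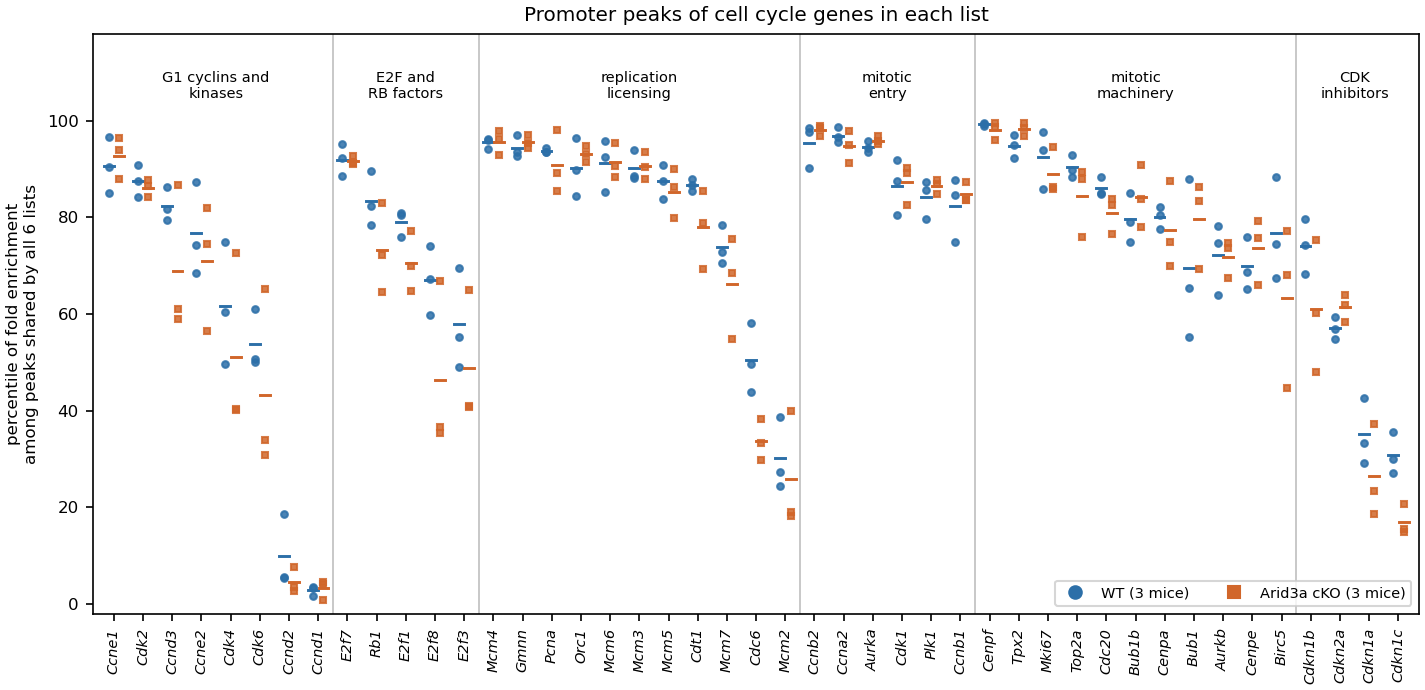
Percentile of fold enrichment among the 32748 shared peaks (y axis, 0 to 100) at 45 promoters, by role group, for 3 WT (circles) and 3 Arid3a cKO (squares) lists. Short lines are group means. The legend counts mice, but the 3 values of a group are 3 libraries, which the sources used here do not tie to separate animals. Mitotic and licensing promoters lie mostly above 70, Ccnd1 and Ccnd2 lie below 20 in every list, and most pairs of genotypes overlap.

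The 5 highest promoters were Cenpf, Ccnb2, Tpx2, Ccna2 and Mcm4. Cenpf stood at 98.9, 99.6 and 99.3 in WT and 98.6, 99.5 and 96 in cKO. Ccnb2 stood at 90.3, 97.7 and 98.4 in WT and 99, 96.9 and 98.4 in cKO. These top promoters were not separable by their ranges: Tpx2, a spindle assembly factor, ran from 92.3 to 99.6, Ccna2, cyclin A2, from 91.3 to 98.6, and Mcm4, a subunit of the replicative helicase, from 92.9 to 97.8. The Mcm4 region is also the promoter of its divergent neighbour Prkdc, and 10 of the promoter regions at cell cycle genes were shared with another gene in this way.

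The 5 lowest were Ccnd1, Ccnd2, Cdkn1c, Mcm2 and Cdkn1a. Ccnd1 stood at 3.46, 1.67 and 3.33 in WT and 4.63, 4.13 and 0.824 in cKO. Ccnd2, which encodes cyclin D2, stood at 18.5, 5.42 and 5.66 in WT and 2.70, 7.71 and 3.39 in cKO. Ccnd3, cyclin D3, stood far above both, at 81.7, 86.2 and 79.4 in WT and 61.0, 86.6 and 59.0 in cKO. The other 5 licensing helicase subunits lay between 70.1 and 95.6 on average, whereas Mcm2 averaged 27.9.

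A low percentile of fold did not mean few fragments. Ranked by summit pileup instead, Ccnd1 rose to a mean percentile of 54.2, Ccnd2 to 62.0, Mcm2 to 75.9 and Cdkn1a to 86.9. The local background used by the peak caller was high around these promoters, on average 9.64 times the commonest background of the list at Ccnd1, 9.85 times at Ccnd2, 9.23 times at Mcm2 and 12.3 times at Cdkn1a. Ccnd1 also had neighbouring regions in all 6 lists at chr7:144937569-144938229, in its intron, and at chr7:144941207-144943688, upstream of the start. Over role groups the median of this ratio was 9.46 for G1 cyclins and kinases, 8.58 for E2F and RB factors and 4.64 for the mitotic machinery, against 4.92 over promoter regions of protein-coding genes. The opposite case was Bub1, a spindle checkpoint kinase, with a ratio of 2.32, a mean pileup percentile of 49.9 and a mean fold percentile of 74.5. Its summit pileups were 29, 47 and 83 fragments in WT and 97, 37 and 76 in cKO, with an exact Poisson 95% interval of 19.4 to 41.6 for the lowest, for counting error only.

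**Figure D3:**
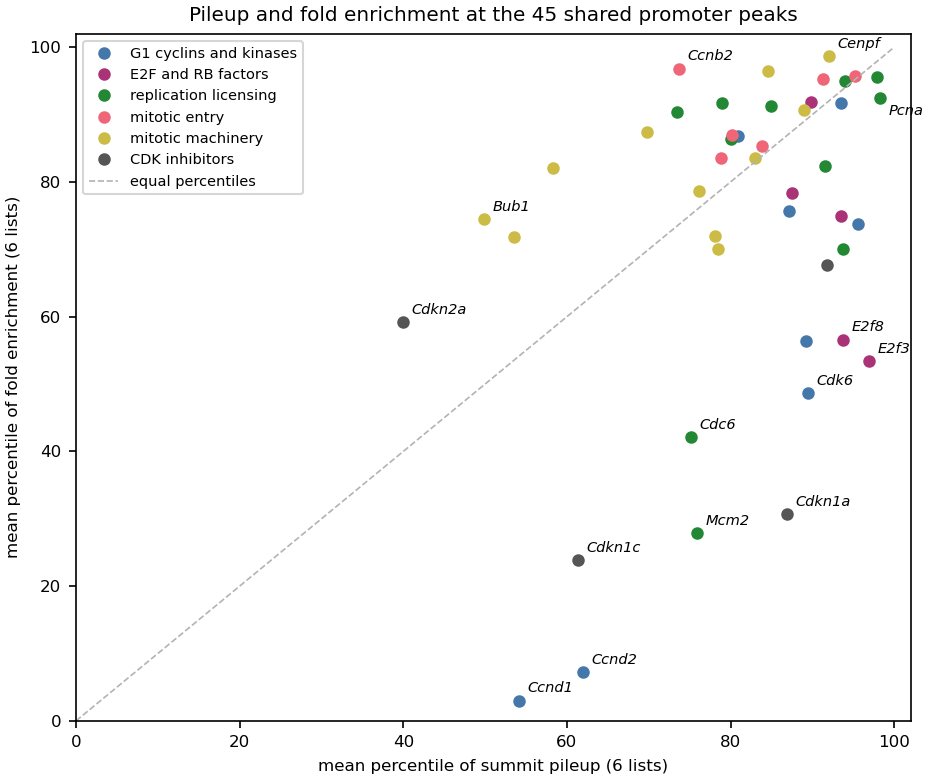
Mean percentile of fold enrichment (y axis) against mean percentile of summit pileup (x axis) over 6 lists, for 45 cell cycle promoters coloured by role; the dashed line marks equal percentiles. Ccnd1, Ccnd2, Mcm2, Cdkn1a, E2f3 and Cdk6 lie far below the line, and Bub1, Ccnb2 and Cdkn2a above it.

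Promoter regions at cell cycle genes were 595 bp (Ccnd1) to 3591 bp (Cdk6) wide, with a median of 1419 bp against 1335 bp for protein-coding genes. The median summit lay within 200 bp of a start site at 42 of the 45. The exceptions were Ccnd2 (-724 bp from the start), Cdkn2a (-404.5 bp) and Aurka (-320 bp), whose region is also the promoter of Cstf1.

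The main question was whether accessibility at these genes differed after loss of Arid3a. In unsorted tissue, a change in the share of dividing cells and a change within each cell cannot be told apart. No cell cycle promoter passed the test: in a limma fit to normal scores of the ranks over all 32748 shared peaks, 0 peaks (0%) had an adjusted p under 0.05, and the lowest adjusted p at a cell cycle promoter was 0.707. At an unadjusted p under 0.05 the fit called 2300 shared peaks, 7.02%, and 1 of 45 cell cycle promoters. That promoter was Tpx2, with an unadjusted p of 0.0477 from limma, a difference of 0.56 ± 0.26 (SE) normal score units, and percentiles of 95, 97.0 and 92.3 in WT and 96.9, 98.4 and 99.6 in cKO, which overlapped. Without cKO 2, which resembled WT, 5953 shared peaks (17.5%) and 5 of 45 cell cycle promoters (11.1%) had an unadjusted p under 0.05, the lowest adjusted p at a cell cycle promoter was 0.217 (limma), and none passed. Without cKO 1 or cKO 3 the shared peaks at that level were 1329 and 1236.

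The mean percentile was lower in cKO at 28 of the 45 promoters (62.2%) and higher at 17, and the median difference was -2.21 percentile points. Over the shared promoter regions of all protein-coding genes the median was -2.60, with 66.3% below 0. Ranked by summit pileup, the median difference was 0.321 at cell cycle promoters and -0.0845 at all promoters, so its direction depended on the measure ranked. All 3 WT values exceeded all 3 cKO values at 3 of 45 promoters (6.67%), against 7.66% of promoter regions, and the reverse held at 0 of 45, against 3.53%. With 3 lists a group, the smallest exact permutation p is 0.1, so no single promoter could pass a threshold of 0.05 by that test.

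The 3 promoters with no overlap were Cdc6, Cdkn1c and Cdc20. Cdc6, which loads the replicative helicase onto origins, stood at 58.2, 43.9 and 49.6 in WT and 29.7, 38.3 and 33.2 in cKO, a difference of -16.8 percentile points (SD 7.15 in WT and 4.35 in cKO, n = 3 each, exact permutation p = 0.1, limma adjusted p = 0.707). Every cKO list was below every WT list at Cdc6. Its summit pileups were 65, 99 and 141 fragments in WT and 170, 66 and 129 in cKO, and ranked by pileup the difference was -2.82. Cdkn1c, which encodes the inhibitor p57, stood at 30.0, 35.5 and 27.1 in WT and 15.6, 20.7 and 14.8 in cKO, a difference of -13.8, or -4.49 when ranked by pileup. Cdc20, the activator of the anaphase-promoting complex, stood at 85.1, 84.8 and 88.4 in WT and 76.6, 83.9 and 82.5 in cKO, a difference of -5.10, or -2.88 without cKO 1 and -0.333 when ranked by pileup.

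Of the 45 promoters, the largest difference was at E2f8, an atypical E2F that represses E2F targets. It stood at 74.0, 67.3 and 59.8 in WT and 35.4, 66.8 and 36.6 in cKO, a difference of -20.8 with an SD of 17.8 among the cKO lists (limma adjusted p = 0.707). The cKO 2 value lay within the WT range and the other cKO values well below it, and ranked by pileup the difference was -0.623. The local background was 38.3 and 30.5 fragments at E2f8 in cKO 1 and cKO 3, against 12.3 to 23.6 in the other lists. At Bub1 and Tpx2, where the cKO mean was higher, cKO 1 and cKO 3 also had the highest background. It was 6.88 and 6.24 at Bub1, against 2.99 to 5.02 in the other lists, and 13.2 and 9.42 at Tpx2, against 4.93 to 9.06. These backgrounds are not scaled to the implied coverage, which was also highest in cKO 1 (2.29) and cKO 3 (2.18). The part of the local background in the E2f8 difference was not tested. The cKO 2 list likewise stood above the other cKO lists at Cdk6 (61.0, 50 and 50.6 in WT, 33.9, 65.2 and 30.9 in cKO), at Cdk4 (74.9, 49.6 and 60.5 in WT, 40.3, 72.7 and 40.1 in cKO) and at Ccnd3. Over the 45 promoters, cKO 2 was the highest of the 3 cKO lists at 30 (66.7%), against 57.1% of all promoter regions. cKO 2 had the lowest and cKO 1 the highest implied coverage of the 6 libraries. The part of coverage in these differences was not tested.

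By role, the median difference was -10.8 for CDK inhibitors, -9.03 for E2F and RB factors, -5.50 for G1 cyclins and kinases, -2.09 for licensing, -1.27 for the mitotic machinery and 1.79 for mitotic entry. The CDK inhibitor value is over 4 promoters and leaves out the Cdkn2b region, which differed by 0.685. The mean was lower in cKO at all 5 E2F and RB promoters with a shared region, beside 66.3% of all promoter regions, and higher at 5 of 6 mitotic entry promoters, with every adjusted p at 0.707 or more. Ranked by pileup, E2f3 turned to 0.904 and Ccnb2 to -0.0356. Under the pileup ranking these medians were -0.394, -0.623, 0.671, 1.02, 0.0239 and 2.30 in the same order, so the sign of 3 of the 6 (G1 cyclins and kinases, licensing and mitotic machinery) changed with the measure. Promoters of the 12 epithelial markers, of which 11 had a shared region, had a median fold difference of -12.5 and a median pileup difference of 1.96. By fold, 11 of 11 were below 0, beside 66.3% of all promoter regions. Without overlap, 3 of 11 were lower in cKO, beside 7.66% of promoter regions of protein-coding genes. The 3 marker promoters of other cell types with a shared region, Kdr, Col1a1 and Pdgfra, differed by 25.2, 7.06 and -8.72 points, none past the adjusted threshold. The part of cell composition in the cell cycle values was not tested.

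**Figure D4:**
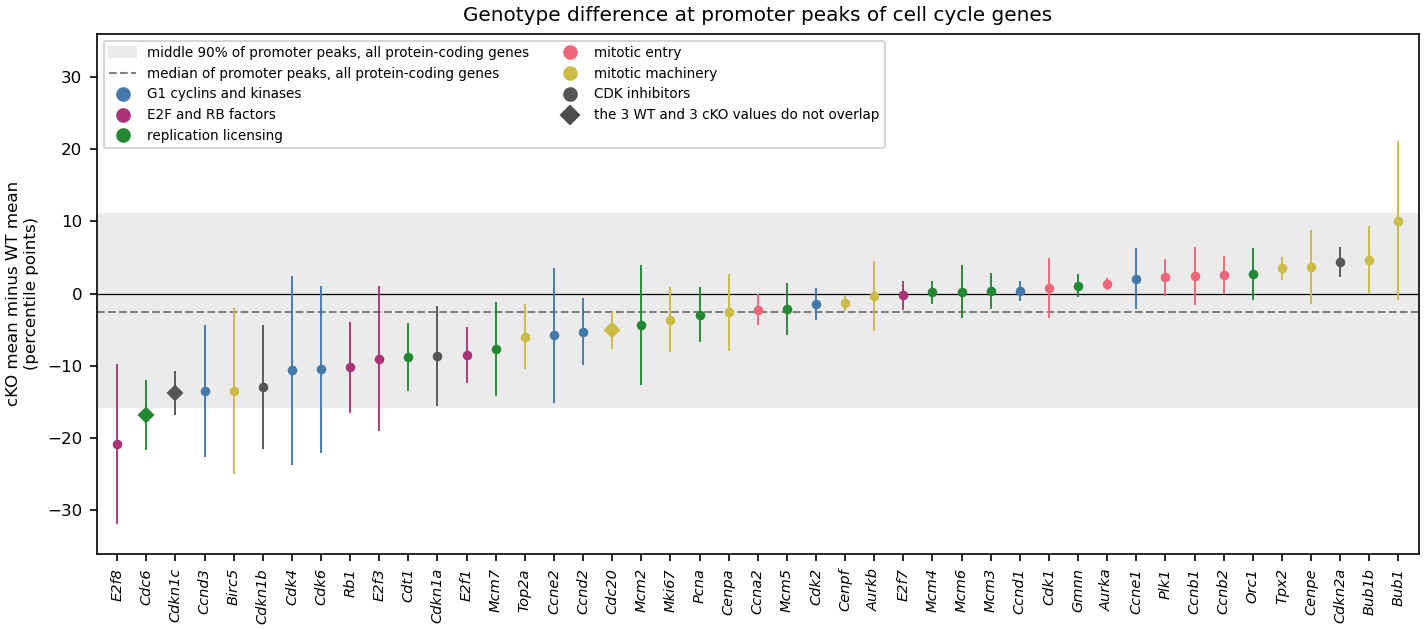
Mean cKO minus mean WT percentile (y axis, percentile points, ± SE of the difference, n = 3 lists each) at 45 cell cycle promoters, ordered by size and coloured by role; diamonds mark promoters without overlap. The grey band, from -15.7 to 11.0, holds the middle 90% of promoter regions of protein-coding genes, and 43 of the 45 lie within it.

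The values of 8 genes in common use as proliferation markers or regulators, Mki67, Ccnd1, Cdk1, Pcna, Mcm2, Cdkn1a, E2f1 and Ccnb1, overlapped between genotypes. Mki67 stood at 97.7, 94.0 and 85.8 in WT and 85.9, 86.3 and 94.5 in cKO. Pcna stood at 94.4, 93.5 and 93.5 in WT and 89.2, 98.1 and 85.4 in cKO. Cdk1 stood at 80.4, 87.5 and 91.8 in WT and 90.3, 82.6 and 89.2 in cKO. These promoters were high in every list. Ccnb1, cyclin B1, stood at 74.9, 84.7 and 87.7 in WT and 83.6, 83.6 and 87.4 in cKO. Mcm2 stood at 24.4, 38.7 and 27.2 in WT and 19.1, 40.0 and 18.2 in cKO. The means lay furthest apart at Cdkn1a and E2f1. Cdkn1a stood at 42.7, 33.3 and 29.2 in WT and 18.5, 37.3 and 23.4 in cKO, a difference of -8.67 (exact permutation p = 0.3). E2f1, an activating E2F, stood at 76.0, 80.5 and 80.8 in WT and 70, 77.1 and 64.8 in cKO, a difference of -8.48 (exact permutation p = 0.2). Bub1 was the promoter with the largest rise in the mean, 10.1 points, but its WT values of 55.2, 65.3 and 88.0 spanned its cKO values of 86.2, 69.3 and 83.3. The rise was 2.61 without WT 1 and 19.3 without WT 3.

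Outside their own promoters, the genes held 124 regions within the gene body plus 10 kb. Of these, 29 were promoters of another gene and 95 lay outside any promoter: 56 in introns, 25 between genes, 8 in UTRs, 5 in coding exons and 1 in a noncoding exon. Of the 95, 33 (34.7%) were called in all 6 lists and 29 (30.5%) in a single list, beside 35.6% and 25.4% of all regions outside promoters. None was called in every list of 1 genotype and no list of the other, a pattern found at 0.464% of all 71286 regions for cKO only and 0.111% for WT only. Peaks at cell cycle genes numbered 30.9, 27.2 and 25.8 per 10000 peaks of the list in WT and 25.6, 28.4 and 26.4 in cKO, and the ranges overlapped.

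These regions gathered at a few genes. The 5 with the most were Cdk6 (15), E2f2 (11), Rb1 (9), Cdkn2a (7) and Ccnd2 (6), while 9 genes had none, among them Ccne1, Ccne2, Top2a and Cenpf. Gene length differs: the Cdk6 window spans 209.5 kb and the Rb1 window 162.2 kb, but that of E2f2 only 43.66 kb. All 15 Cdk6 regions lay within the gene, 14 in introns and 1 in the UTR, and 5 were called in every list. The strongest of these was at chr5:3432763-3434079, at percentiles of 84.1, 74.2 and 82.2 in WT and 77.6, 85.1 and 69.7 in cKO. E2f2 likewise had 5 regions in every list, the strongest in an intron at chr4:136186468-136187473, at 77.6, 68.6 and 64.7 in WT and 61.4, 80.9 and 73.4 in cKO. At Rb1, the restriction point gene, an intronic region at chr14:73253266-73254131 was steady over the lists at 65.6 to 78.7. Of the 7 Cdkn2a regions none was called in more than 4 lists.

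**Figure D5:**
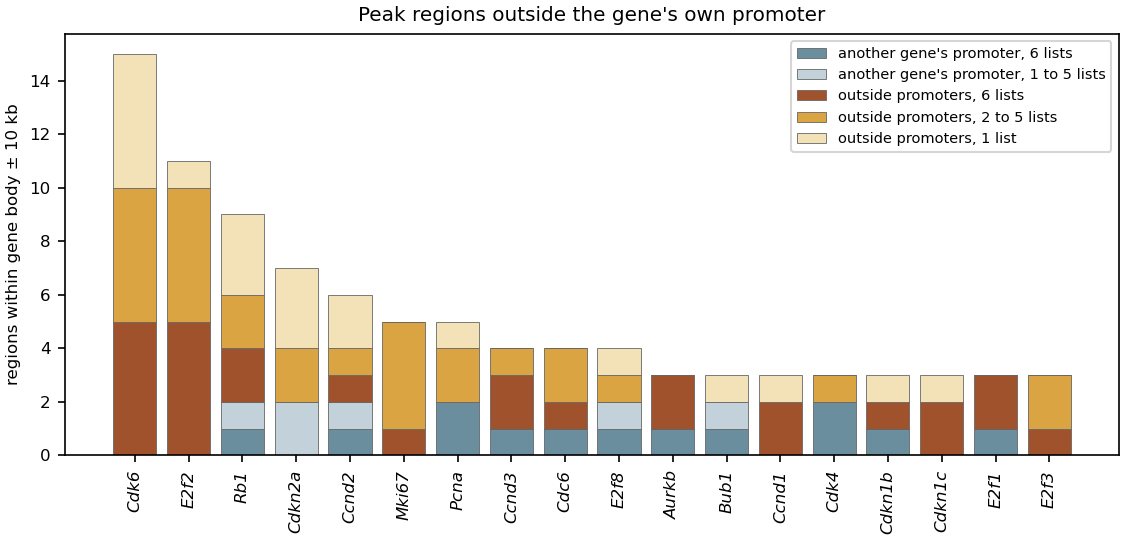
Number of peak regions within the gene body plus 10 kb but outside the gene's own promoter (y axis), for the genes with 3 or more, split by whether the region is another gene's promoter and by the number of lists that called it. Cdk6 with 15 and E2f2 with 11 lead, and 5 of each were called in all 6 lists.

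Of the 33 shared regions outside promoters, 4 (12.1%) were lower in every cKO than in every WT list, against 5.18% of shared peaks outside promoters, and 1 (3.03%) was higher, against 7.28%. The higher one was intronic in Cdk6 at chr5:3516400-3517229, at 24.2, 20.8 and 28.6 in WT and 36.4, 44.1 and 45.4 in cKO, a difference of 17.4 points (0.49 ± 0.23 SE normal score units, limma adjusted p = 0.707). The lower ones were an intronic region of Ccnd3 at chr17:47511084-47511946, with a difference of -12.6 points, the E2f2 UTR region at chr4:136172048-136173626, with -12.3, and 2 regions upstream of Aurkb, with -13.7 and -3.91. The Ccnd3 region stood at 83.7, 80.4 and 79.4 in WT and 66.7, 71.3 and 67.7 in cKO. The E2f2 difference rested on WT 1, at 38.9 against 11.3 and 8.17 in the other WT lists and 5.87, 7.79 and 7.68 in cKO. The Aurkb region with -3.91, whose summit lies in a coding exon of Ctc1, was weak. It stood at 2.49, 11.2 and 3.9 in WT and 2.4, 1.97 and 1.46 in cKO, so its lack of overlap was narrow. None passed the adjusted threshold, and the lowest adjusted p among the 33 was 0.707.

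Of the 29 regions that were promoters of another gene, 22 were shared by all lists, with a median difference of -2.05. Of these 22, 17 were below 0, beside 66.3% of promoter regions of protein-coding genes. None was lower in every cKO list, against 7.66% of promoter regions of protein-coding genes, and 1 (4.55%) was higher, against 3.53%. That region lies in a coding exon of E2f8, at the promoter of Gm2788, and was weak, at 0.344, 0.133 and 0.814 in WT and 1.38, 1.61 and 2.73 in cKO. The Rcbtb2 promoter near Rb1 stood at 9.57, 23.7 and 20.7 in WT and 23.1, 50.4 and 36.4 in cKO, which overlapped. These were the 2 of 22 (9.09%) with an unadjusted p under 0.05 by limma, against 7.02% of shared peaks, and both had an adjusted p of 0.704. Their differences, 1.48 and 18.6, were above 0, whereas those of the E2f8 and Rb1 promoters, -20.8 and -10.2, were below it.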

How the data were processed

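Dissociated intestinal crypts, 3 WT and 3 Arid3a cKO samples, were profiled by ATAC-seq, and reads were trimmed, aligned to GRCm38 with BWA and filtered in the nf-core ATAC-seq pipeline. Narrow peaks were called with MACS2 per library and not on pooled replicates (tool versions beyond the pipeline are not given in the sources used here). The fold deposited by the authors is the summit pileup over the local background, without a control library. The deposited −log10 p and −log10 q values set each pileup against a Poisson distribution with that background as its mean. The score and the authors' read counts were not used, and total read numbers are not analysed here.

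Of each list, 61 to 92 peaks outside chromosomes 1 to 19, X and Y were left out. Genes and start sites came from GENCODE M21 (GRCm38, Ensembl 96, where the authors used Ensembl 95). Peaks overlapping by 1 base or more were merged over lists. The region of a promoter was the one called in most lists, then that of the highest mean percentile. Summit pileups were solved from fold and p and were whole numbers, within 0.02, for 100% of peaks. Normal scores of the within-list percentiles were fitted with limma 3.58.1 without covariates and with Benjamini-Hochberg adjustment over all shared peaks. The fit was run on simulated lists with independent noise in each library. These lack the likeness between libraries seen here, so the run does not show what the fit can detect in these data. Single values were compared with two-sided exact permutation tests. Sequences came from RefSeq promoter tables and the patch was compared with blastn 2.17.0. The members and the gene lists were chosen with earlier results of these data known. Genes were named for a promoter not called in every list, the 5 highest and 5 lowest mean percentiles, non-overlapping or the largest differences, the most regions outside promoters, and 8 proliferation markers and regulators in common use. E2f8, Cdk4, Cdk6, Ccnd3, Bub1 and Tpx2 were also named after their values were seen. Nothing in the sources used here ties the 3 libraries of a group to separate animals, so p-values measure only the spread between these libraries, which may be technical. No pair of the 15 pairs of lists was identical.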

Additional observations from a re-analysis of the deposited data

Results flagged for a closer look

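A peak was called in 6 of 6 lists on the GRCm38 fix patch that carries a copy of Kif11, outside the chromosomes compared above. All 6 peaks fell in a stretch of 10945 bp that the patch holds and the chromosome does not, and their fold enrichment ran from 11.0 to 17.1. No list had a peak on the parts of the patch that match chromosome 19, which include the Kif11 copy. With 3 libraries a group, no test for a single outlying library was made.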

How the results depend on the processing

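No shared peak and no cell cycle promoter passed an adjusted p of 0.05 under any alternative fit: percentiles over all peaks of each list, untransformed percentiles, ranks of −log10 q or of pileup, limma with a trend, chromosomes 1 to 19, −log10 q of at least 5, shortened lists, 500 bp summit windows or any library left out. At an unadjusted p under 0.05 the count ran from 1868 to 2450 over these alternatives and from 1236 to 5953 with 1 library left out, and cKO 1 (1329), cKO 2 (5953) and cKO 3 (1236) moved it by over 1.5 times. The median difference at cell cycle promoters, -2.21, was 0.778 when ranked by −log10 q and 0.321 by pileup, -0.765 when ranked among promoter regions only, an alternative chosen after seeing the data, and -2.86 to -1.0 with 1 library left out. The count of genes with a promoter peak in every list was 41 to 45, and 43 to 44 with 1 library left out. Regions called in 1 genotype only numbered 0, but 1 cKO region (in an Rb1 intron) with lists shortened to the shortest, and 0 to 1 in either direction with 1 library left out, where fewer lists had to agree. The difference in peaks per 10000, -1.15, was 1.31 over the gene body alone, -2.51 over the gene body plus 50 kb, -0.329 with shortened lists, and -2.24 to 0.312 with 1 library left out, above 0 only without WT 1. Within 100 bp of the promoter summit, a shorter window, E2F words were found at 6 of 35 genes (17.1%, against 2.95% of 9639), CHR at 9 (25.7%, against 5.54%), CCAAT at 22 (62.9%, against 28.1%), ARID3 at 2 (5.71%, against 4.86%) and AP-1 at 0 (against 2.44%). Around protein-coding transcript starts, E2F words were found at 15 of 38 genes, CHR at 19, CCAAT at 32, ARID3 at 8 and AP-1 at 0. The shares over all protein-coding genes were then 4.35%, 29.4%, 52.4%, 33.5% and 8.2%. Single promoters moved by more than their spread in 37 of 670 values. The 670 include those under the replicate block given below, which could not move. They also include those with 1 library left out. Leaving out 1 of 3 libraries shifts a group mean by less than that spread, apart from re-ranking, so these could hardly count as moved. The count is therefore no measure of stability to single libraries: the E2f8 difference ran from -30.6 to -15.3 with 1 library left out. Replicate numbers did not pair the libraries: deviations of same-numbered WT and cKO lists correlated at -0.295, -0.0126 and 0.140. With the number as a replicate block, 0 shared peaks passed and 2178 had an unadjusted p under 0.05. The median difference is taken from the percentiles and not from the fit, so the block could not change it. Causes of these shifts were not tested. Depth was taken only from the implied coverage, since the authors' read counts were not used.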
